A study of Mus musculus with 18 samples.

Results

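Collagens are the triple-helical proteins that form the fibrils, networks and filaments of the extracellular matrix. The collagen chains described here are the genes whose symbol consists of Col, a type number, the letter a and a chain number, and 44 such genes were found among 24091 symbols of the table for epididymal white fat (eWAT) and the same 44 among 51826 gene identifiers of the table for inguinal white fat (iWAT). The 44 chains comprised 11 fibrillar chains, 6 basement membrane chains (type IV), 6 microfibrillar chains (type VI), 9 fibril-associated chains with interrupted triple helices (FACIT), 2 multiplexins, 3 short-chain network chains, 4 transmembrane chains and 3 others.

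The libraries came from C57BL/6 mice, with 3 libraries in each of 6 groups: shiftwork and control eWAT at ZT12, shiftwork and control eWAT at ZT3, and shiftwork and control iWAT at ZT3. Shiftwork mice were kept for 24 weeks under a rotating week in which the 12-h light and 12-h dark phases were regular on 4 days and swapped on the other 3 days, while control mice kept the regular phases on all 7 days. ZT3 and ZT12 count hours from lights-on of the regular schedule, so that ZT12 is lights-off. The labels give no sex, age or number of animals per library, do not state the day of the week of sampling, and do not say whether libraries of one group came from separate animals, so p-values measure the spread between these libraries. The shallowest and deepest eWAT libraries held 20352008 and 72276733 assigned reads, and the corresponding iWAT libraries 28544338 and 55639501.

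In white fat, collagens surround each adipocyte with a basement membrane made of type IV chains and form the interstitial scaffold in which vessels, nerves and fibroblasts lie. Fibrillar chains (types I, III and V) build the banded fibrils, type VI chains build beaded filaments close to the cell surface, and FACIT chains decorate the surface of fibrils. Fibroblasts and adipocyte progenitors are the main known source of fibrillar collagens in this tissue, and adipocytes and endothelial cells are known to make basement membrane chains. In whole tissue, fewer cells of a type and less RNA per cell cannot be told apart.

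All 8 adipocyte markers were above 1 CPM in every library, and their sum was between 13187 and 30429 CPM in the iWAT libraries and between 10819 and 27124 CPM in the eWAT libraries. Several libraries also held transcripts of other tissues. The 8 vas deferens and epididymis markers summed to 13147 and 12499 CPM in eWAT ZT3 control replicates 1 and 3 and to at most 10.9 CPM in the other eWAT libraries. Akr1b7 (10002 and 9384 CPM), Crisp1, Spink8 and Defb42 made up nearly all of these 2 sums. The list's other members, Pate4, Crisp4, Adam7 and Lcn5, stood at no more than 1.82 CPM there, so male tract transcripts below refers to the high markers only. Smooth muscle markers summed to 11568 and 7942 CPM in the same 2 libraries. Male germ cell markers summed to 5493 CPM in eWAT ZT3 shiftwork replicate 3, against at most 72.7 CPM in the other eWAT libraries. Intestine markers summed to 578 CPM in eWAT ZT12 shiftwork replicate 2, against at most 38.7 CPM in the other eWAT libraries. Skeletal muscle markers summed to 46520 CPM in iWAT shiftwork replicate 1, and B cell markers to 881 and 1439 CPM in iWAT control replicates 1 and 2.

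Levels per length are given as FPKM in eWAT and RPKM in iWAT, which were normalized separately, so that a level in one depot is set beside a level in the other without a test. In eWAT 5 chains averaged at least 100 FPKM, 14 at least 10 FPKM and 24 at least 1 FPKM over the 12 libraries. In iWAT 8 chains averaged at least 100 RPKM, 14 at least 10 RPKM and 23 at least 1 RPKM over the 6 libraries. In each depot 32 of the 44 chains had at least 10 reads in every library. The low filter used for testing kept 38 of the 44 chains in each depot. In eWAT the untested chains were Col2a1, Col9a1, Col9a2, Col10a1, Col24a1 and Col25a1, and in iWAT they were Col2a1, Col9a1, Col9a2, Col10a1, Col19a1 and Col25a1. Most of these are known as cartilage chains (types II, IX and X) or, for Col25a1, as a neuronal transmembrane collagen.

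**Figure D1:**
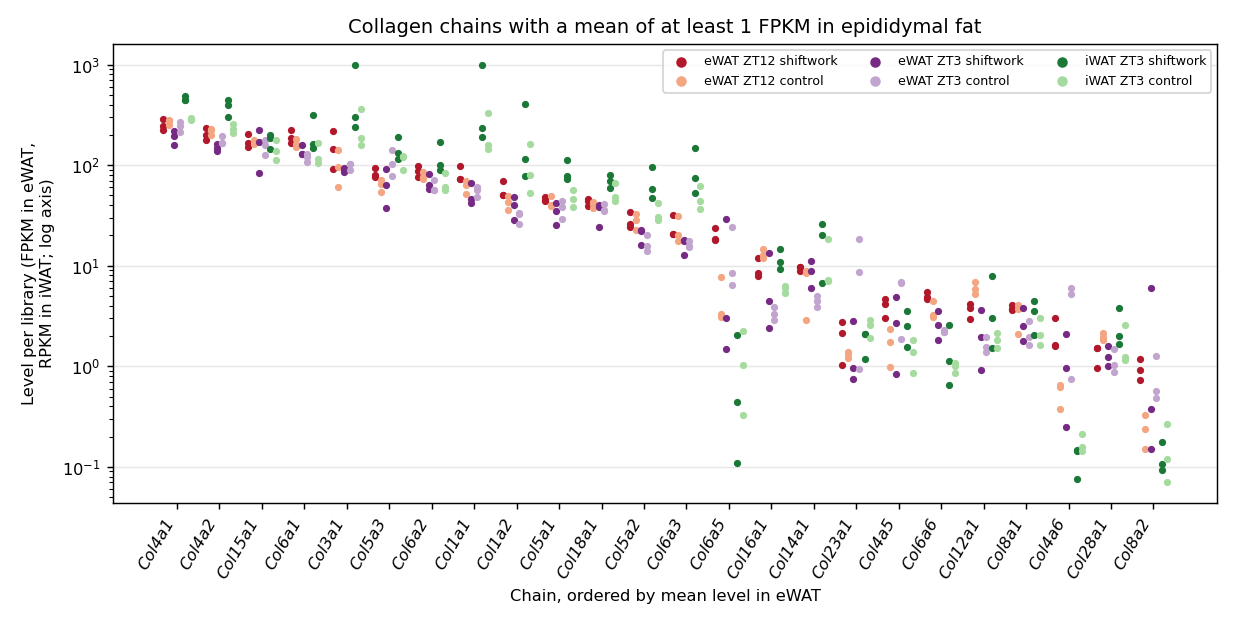
Level per library (FPKM in eWAT, RPKM in iWAT, log axis) of the 24 chains that averaged at least 1 FPKM in eWAT, ordered by their eWAT mean, with each point 1 library and colours for the 6 groups. Col4a1 and Col4a2 led in eWAT, and in iWAT the shiftwork replicate with 994 RPKM of Col3a1 stands above all other libraries for the fibrillar chains.

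The order of levels differed between the 2 depots. In eWAT the basement membrane chains Col4a1 (mean 240 FPKM) and Col4a2 (187 FPKM) led, followed by the multiplexin Col15a1 (165 FPKM), the microfibrillar chain Col6a1 (154 FPKM) and the fibrillar chain Col3a1 (109 FPKM). In iWAT the leading chains were Col3a1 and Col4a1 (374 RPKM each), Col1a1 (342 RPKM) and Col4a2 (306 RPKM). Col3a1 and Col1a1 reached that mean through shiftwork replicate 3, in which they stood at 994 and 995 RPKM. Neighbours in these orders overlapped in range: over the eWAT libraries Col4a1 ran from 159 to 290 FPKM, Col4a2 from 139 to 235 FPKM and Col15a1 from 84.3 to 223 FPKM. The transmembrane, short-chain network and other classes each took at most 1.63 percent of the summed level of the 44 chains in any library.

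The genes of Col4a1 and Col4a2 lie head to head on chromosome 8 (Col4a1 at chr8:11198423-11312826, minus strand, and Col4a2 at chr8:11312805-11449287, plus strand, GRCm38), and their annotated ends overlap by 22 bases. The promoter windows of both are shown because this pair has the highest levels in eWAT and, in iWAT, every shiftwork library lay above every control library for both chains. The RefSeq windows (GRCm38.p6, 250 bases before and 50 bases after each start) are chr8:11312777-11313076 on the minus strand for Col4a1 and chr8:11312555-11312854 on the plus strand for Col4a2, and capitals mark the 78 bases that both windows hold, each read on its own gene's strand.
Col4a1: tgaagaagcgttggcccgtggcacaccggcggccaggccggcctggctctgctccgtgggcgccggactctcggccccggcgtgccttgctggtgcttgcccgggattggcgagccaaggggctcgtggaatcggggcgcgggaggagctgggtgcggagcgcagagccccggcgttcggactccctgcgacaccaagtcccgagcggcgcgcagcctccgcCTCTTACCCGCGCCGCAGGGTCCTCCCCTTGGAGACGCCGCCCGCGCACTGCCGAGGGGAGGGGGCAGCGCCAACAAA
Col4a2: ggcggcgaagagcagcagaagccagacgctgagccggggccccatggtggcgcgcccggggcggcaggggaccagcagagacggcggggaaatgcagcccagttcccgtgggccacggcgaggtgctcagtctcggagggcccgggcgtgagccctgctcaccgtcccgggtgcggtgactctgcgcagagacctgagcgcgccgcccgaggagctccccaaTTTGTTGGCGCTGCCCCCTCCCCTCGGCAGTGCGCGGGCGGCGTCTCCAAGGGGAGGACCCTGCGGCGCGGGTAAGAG
The Col4a1 window holds 1 CCAAT and 1 GGGCGG match, and the Col4a2 window 1 CCAAT and 3 GGGCGG matches, on either strand.

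Fibrillar chains took 33.5 to 62.7 percent of the summed collagen level in iWAT libraries and 22.7 to 35.3 percent in eWAT libraries. Basement membrane chains took 16.8 to 40.7 percent in iWAT and 26.6 to 38.7 percent in eWAT. Microfibrillar chains took 12.7 to 14.8 percent in iWAT and 16.7 to 23.8 percent in eWAT, so these ranges did not overlap. FACIT chains took 0.872 to 1.67 percent in iWAT and 0.730 to 3.84 percent in eWAT. The summed level of all 44 chains was 1348 to 1583 FPKM in ZT12 shiftwork, 1248 to 1471 FPKM in ZT12 control, 992 to 1238 FPKM in ZT3 shiftwork and 1154 to 1294 FPKM in ZT3 control eWAT. In iWAT it was 2376, 2287 and 4463 RPKM in shiftwork, against 1526, 1519 and 2166 RPKM in control libraries.

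**Figure D2:**
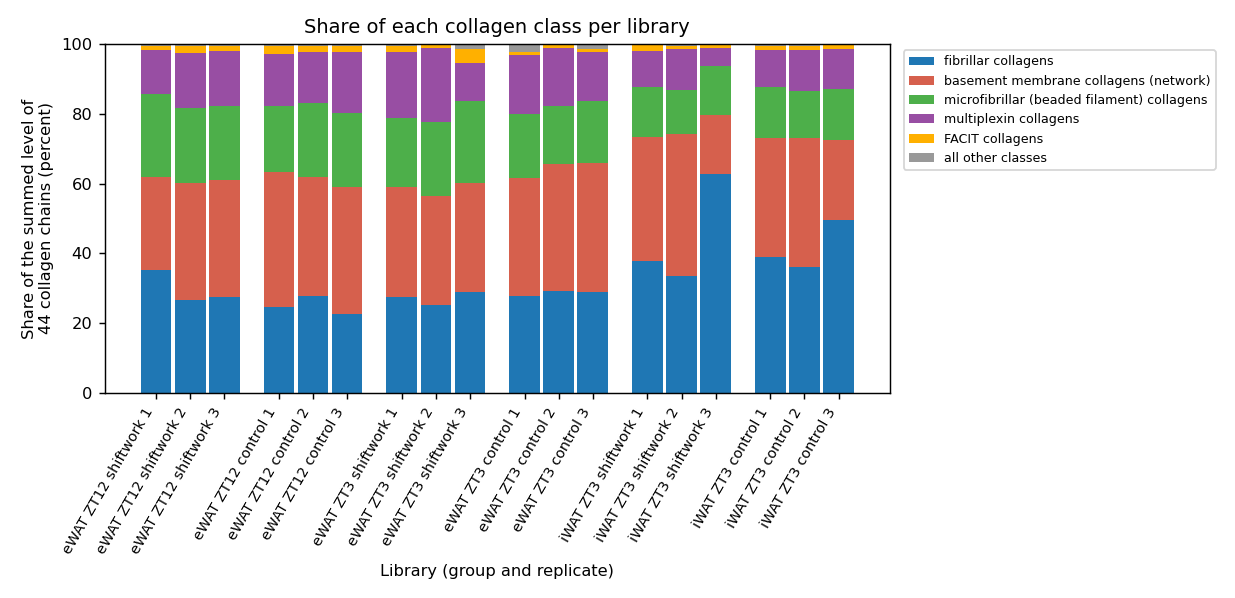
Share of each collagen class in the summed level of the 44 chains (percent, y axis) for each of the 18 libraries (x axis), as stacked bars. Fibrillar chains took 62.7 percent in iWAT shiftwork replicate 3 and at most 49.7 percent elsewhere, and the FACIT share was highest, at 3.84 percent, in eWAT ZT3 shiftwork replicate 3.

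Proportions between chains that assemble together were described by the ratios of their levels. The per-length ratio of Col4a1 to Col4a2, partners in the common basement membrane trimer, lay between 1.10 and 1.48 over 6 iWAT libraries and between 1.14 and 1.46 over 12 eWAT libraries. The ratio of Col6a1 to Col6a2, partners in type VI, lay between 1.61 and 1.98 in iWAT and between 1.73 and 2.28 in eWAT. The ratio of Col1a1 to Col1a2, partners in type I, lay between 2.01 and 2.71 in iWAT and between 1.17 and 2.19 in eWAT. The ratio of Col4a5 to Col4a6, partners in smooth muscle basement membranes, was less steady, between 5.87 and 24.5 in iWAT and between 1.14 and 3.65 in eWAT. In iWAT this ratio rests on few reads, since Col4a6 had 17 to 70 reads per library. In eWAT the lowest ratios, 1.14 and 1.28, were those of ZT3 control replicates 1 and 3, the libraries with male tract and smooth muscle transcripts.

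The comparison of ZT12 with ZT3 in control eWAT asked which chains differ between the times of day on the regular schedule. The FACIT chains Col12a1 and Col16a1 were higher at ZT12, and no chain was called lower. Col12a1 binds the surface of type I fibrils in tendon, skin and other dense tissue, and Col16a1 is found with fibrillin filaments and near basement membranes. Col12a1 (chr9:79598987-79718722, minus strand, GRCm38) stood at 5.88, 6.91 and 5.29 FPKM at ZT12, against 1.57, 1.37 and 1.97 FPKM at ZT3. The 2 groups did not overlap, and its log2 fold change was 1.90 ± 0.37 (SE; adjusted p = 0.0277, edgeR's quasi-likelihood test). Col16a1 (chr4:130047840-130099277, plus strand, GRCm38) stood at 12.7, 11.9 and 14.5 FPKM at ZT12, against 3.93, 3.31 and 2.91 FPKM at ZT3. These groups did not overlap either, and its log2 fold change was 1.96 ± 0.46 (SE; adjusted p = 0.0479, edgeR). Of all 15141 genes tested 3.69 percent were called in this comparison and 2.93 percent were called higher, so that 2 of 38 chains is near the background. DESeq2 called 11 chains, where it called 15.3 percent of all genes. A further FACIT chain of similar level, Col14a1, which also binds the surface of fibrils, stood at 8.47, 8.84 and 2.87 FPKM at ZT12 and at 3.87, 4.43 and 4.96 FPKM at ZT3, where the groups overlapped.

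The promoter window of Col16a1 is shown because it is the called chain for which RefSeq gives one in the same build as the eWAT positions (GRCm38.p6, chr4:130047590-130047889, plus strand, 250 bases before and 50 bases after the gene's start). Capitals mark matches to CCAAT and to GGGCGG on either strand, which do not overlap each other here.
Col16a1: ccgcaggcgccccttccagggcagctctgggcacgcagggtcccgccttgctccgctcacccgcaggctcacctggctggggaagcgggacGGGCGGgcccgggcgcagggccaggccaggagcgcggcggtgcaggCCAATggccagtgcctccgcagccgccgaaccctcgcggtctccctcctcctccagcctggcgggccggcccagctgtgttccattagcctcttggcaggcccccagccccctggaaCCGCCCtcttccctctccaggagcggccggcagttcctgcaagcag
The window holds 1 CCAAT and 2 GGGCGG matches. Windows were found for 35 of the 44 chains, 38 windows in all, and 13 of these held CCAAT (34.2 percent, against 37.4 percent of all 32851 windows of 300 bases), 23 held GGGCGG (60.5 percent, against 35.7 percent), 5 held TATAAA (13.2 percent, against 13.6 percent) and 0 held CACGTG (against 7.15 percent), each searched on both strands. CACGTG is the E-box that the clock factors BMAL1 and CLOCK are known to bind, and these counts say only which letters lie in the windows.

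Both calls depended on the settings and the libraries, and over 17 alternatives Col12a1 was called in 10 and Col16a1 in 4. Without any one of ZT3 control replicates 1 and 3, the 3 ZT12 control libraries and ZT12 shiftwork replicates 2 and 3, neither chain was called, and the highest adjusted p over 17 alternatives was 0.128 for Col12a1 and 0.210 for Col16a1, while the log2 fold changes stayed between 1.79 and 2.03. Without the 3 ZT3 libraries that held male tract or germ cell transcripts, Col12a1 had a log2 fold change of 1.99 ± 0.43 (adjusted p = 0.0475, edgeR) and Col16a1 of 1.82 ± 0.38 (adjusted p = 0.0427, edgeR), and Col5a3 was called as well. That setting was chosen after the data were seen, and it leaves 1 ZT3 control library, which is assumed to vary like the other groups. Without ZT3 shiftwork replicate 3 alone 12 chains were called, and without ZT3 control replicate 2 alone 5 chains.

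In controls 9 of 38 chains, including Col12a1 and Col16a1, were higher at ZT12 with no overlap between the groups, where 17.6 percent of all genes were, and 7 of 38 were lower with no overlap, where 13.1 percent of all genes were. The 9 higher chains were Col12a1, Col16a1, the fibrillar chains Col1a2 and Col5a2, the microfibrillar chains Col6a1, Col6a2 and Col6a6, the basement membrane chain Col4a2 and the peripheral nerve chain Col28a1. The 7 lower chains were Col5a3 and Col11a1 (fibrillar), Col4a3, Col4a4 and Col4a6 (basement membrane), Col6a4 (microfibrillar) and Col8a2 (short-chain network). Col6a6, a long type VI chain, stood at 3.10, 4.46 and 3.26 FPKM at ZT12, against 2.29, 2.21 and 2.18 FPKM at ZT3 (log2 fold change 0.71 ± 0.20, SE; adjusted p = 0.0750, edgeR). Col5a2, a partner of Col5a1 in type V, stood at 28.3, 32.8 and 22.7 FPKM at ZT12, against 15.7, 20.2 and 13.9 FPKM at ZT3 (0.75 ± 0.25; adjusted p = 0.109, edgeR). Neither passed the threshold. Of the 38 tested chains 20 had a log2 fold change above 0, with a median of 0.04, against 48.7 percent above 0 and a median of −0.01 for all genes, and without single libraries the chains' median lay between −0.15 and 0.06. Macrophage markers summed to 1096 to 1863 CPM at ZT12 and to 612 to 719 CPM at ZT3 in controls, and adipocyte markers to 21452 to 27124 CPM at ZT12 and to 13661 to 21354 CPM at ZT3, both without overlap. The ZT3 adipocyte sum of 21354 CPM was that of replicate 2, close to the lowest ZT12 sum. The lower ZT3 sums were those of replicates 1 and 3, which held male tract and smooth muscle transcripts. The part of both marker lists in the differences between the times was not tested.

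**Figure D3:**
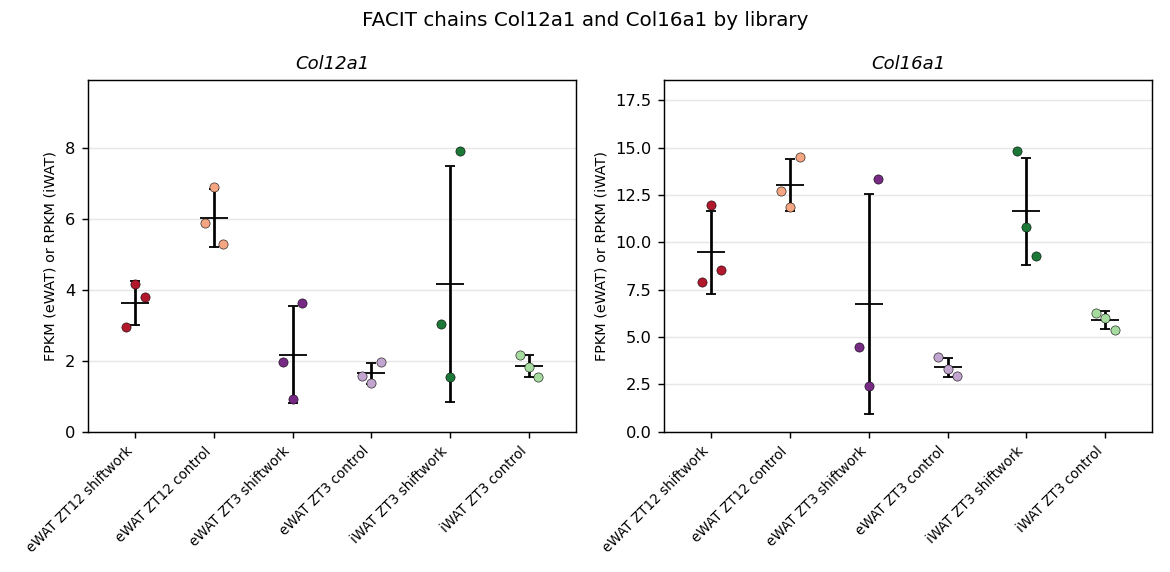
Levels of the FACIT chains Col12a1 and Col16a1 (FPKM in eWAT, RPKM in iWAT, y axis) in the 3 libraries of each of the 6 groups (x axis), with each point 1 library and bars at the mean ± SD. The ZT12 control libraries stand at 5.29 to 6.91 FPKM for Col12a1 and at 11.9 to 14.5 FPKM for Col16a1, above all ZT3 control libraries.

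In shiftwork eWAT the same comparison gave no call among the chains by edgeR. Col12a1 stood at 2.95, 4.16 and 3.79 FPKM at ZT12, against 1.96, 0.914 and 3.63 FPKM at ZT3, and its groups overlapped (log2 fold change 0.80 ± 0.36, SE; adjusted p = 0.306, edgeR). Col16a1 stood at 7.90, 11.9 and 8.53 FPKM at ZT12, against 4.46, 2.41 and 13.4 FPKM at ZT3, where the high ZT3 library is the one that held germ cell transcripts. The difference between schedules in the change with time was −1.10 ± 0.50 log2 units for Col12a1 (SE; adjusted p = 0.495, edgeR) and −1.41 ± 0.63 for Col16a1 (adjusted p = 0.493), so a difference between the schedules was not shown for either. No chain passed this test by edgeR, as did 0.0 percent of all genes, 5 chains had an unadjusted p under 0.05, where 10.1 percent of all genes did, and DESeq2 called 1 chain, Col4a6, where it called 1.36 percent of all genes. Without the 3 doubted ZT3 libraries the differences were −0.73 ± 0.49 and −0.45 ± 0.44.

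Under shiftwork 9 of 38 chains were higher at ZT12 with no overlap between the groups, where 9.4 percent of all genes were, and 1 chain, Col4a3, was lower with no overlap, where 6.12 percent of all genes were. The 9 chains were Col1a1, Col1a2, Col5a1, Col5a2, Col6a1, Col6a3, Col6a6, Col4a1 and Col4a2. Col1a1, the larger part of type I collagen, stood at 97.6, 72.4 and 72.9 FPKM at ZT12, against 46.4, 42.1 and 67.1 FPKM at ZT3 (log2 fold change 0.66 ± 0.19, SE; adjusted p = 0.280, edgeR). Col6a6 stood at 4.69, 4.93 and 5.52 FPKM at ZT12, against 2.59, 1.82 and 3.58 FPKM at ZT3 (0.95 ± 0.20; adjusted p = 0.280, edgeR). Col6a1, a core type VI chain, stood at 224, 168 and 185 FPKM at ZT12, against 129, 160 and 128 FPKM at ZT3 (0.47 ± 0.18; adjusted p = 0.280, edgeR). None of these passed the threshold, and 0.0 percent of all genes did. At an unadjusted p under 0.05 there were 9 of 38 chains, where 16.3 percent of all genes passed. DESeq2 called 2 chains, Col1a1 and Col6a6, where it called 2.11 percent of all genes.

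Over the 38 chains 26 had a log2 fold change above 0 under shiftwork, with a median of 0.33, against 46.4 percent above 0 and a median of −0.03 over all genes. This summary moved with the libraries and the filter. It was 21 of 38 with a median of 0.14 without ZT3 shiftwork replicate 2, and 28 of 44 with a median of 0.13 without a filter on low counts. Without the 3 ZT3 libraries holding male tract or germ cell transcripts it was 35 of 38 with a median of 0.40, against 49.7 percent and −0.00 over all genes, and without ZT12 shiftwork replicate 2, which held intestine transcripts, 24 of 38 with a median of 0.31.

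By class, with all 12 libraries, medians were 0.40 for 9 tested fibrillar chains, 0.53 for 6 microfibrillar chains, 0.43 for 6 basement membrane chains and −0.32 for 7 FACIT chains. The FACIT median turned to 0.72, with 7 of 7 chains above 0, without ZT3 shiftwork replicate 3, the library with germ cell transcripts, and to 0.11 without ZT12 shiftwork replicate 1. Without ZT3 shiftwork replicate 3 the medians of the fibrillar and basement membrane chains were 0.65 and 0.27. The markers of fibroblasts and progenitors summed to 2510 to 2881 CPM at ZT12 and to 1642 to 2282 CPM at ZT3 under shiftwork, and macrophage markers to 1255 to 2622 CPM at ZT12 and to 549 to 1010 CPM at ZT3, both without overlap. The part of neither list in the result was tested.

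Between shiftwork and control eWAT at a given time no chain passed the threshold by edgeR. At ZT12 0 of 38 chains passed, as did 0.0 percent of all genes. There were 2 chains with an unadjusted p under 0.05, where 2.34 percent of all genes had one, and DESeq2 called 0 chains, where it called 0.0493 percent of all genes. Without overlap, 9 of 38 chains were higher in shiftwork, where 6.6 percent of all genes were. These were Col1a1, Col1a2 and Col5a3 among fibrillar chains, Col4a5 and Col4a6 in basement membrane, Col6a4, Col6a5 and Col6a6 in microfibrils, and Col8a2, a vascular and corneal short-chain collagen. Col1a1 stood at 97.6, 72.4 and 72.9 FPKM in shiftwork, against 63.9, 69.9 and 51.5 FPKM in control libraries (log2 fold change 0.36 ± 0.19, SE). Col6a5, a long type VI chain, stood at 17.9, 18.5 and 24.0 FPKM in shiftwork, against 3.08, 7.79 and 3.29 FPKM in control libraries (2.07 ± 0.95). Col4a6 stood at 3.00, 1.62 and 1.61 FPKM in shiftwork, against 0.622, 0.647 and 0.380 FPKM in control libraries (1.88 ± 0.77). The adjusted p of each was 1 by edgeR.

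Over the chains 27 of 38 were above 0 at ZT12, with a median of 0.19, against 49 percent and a median of −0.00 over all genes. The chains' median was 0.12 without ZT12 control replicate 3 and 0.25 without ZT12 shiftwork replicate 2, the library with intestine transcripts. In the opposite direction, 2 of 38 chains were lower in ZT12 shiftwork without overlap, where 4.64 percent of all genes were. These were Col12a1, at 2.95, 4.16 and 3.79 FPKM in shiftwork, against 5.88, 6.91 and 5.29 FPKM in control libraries (log2 fold change −0.74 ± 0.36, SE), and Col28a1, at 0.957, 1.54 and 1.54 FPKM in shiftwork, against 2.12, 1.83 and 1.94 FPKM in control libraries (−0.57 ± 0.26). The smooth muscle markers summed to 468 to 970 CPM in ZT12 shiftwork and to 427 to 459 CPM in ZT12 control libraries, and their part in these differences was not tested.

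At ZT3 0 of 38 chains passed by edgeR, as did 0.0 percent of all genes, while 5 chains had an unadjusted p under 0.05, where 18.8 percent of all genes did, and DESeq2 called Col7a1 and Col23a1 lower, 2 chains, where it called 4.52 percent of all genes. Col7a1 forms the anchoring fibrils of epithelia, and Col23a1 is a transmembrane collagen. Col7a1 stood at 0.056, 0.0456 and 0.170 FPKM in shiftwork, against 1.29, 0.083 and 1.02 FPKM in control libraries, and Col23a1 at 0.964, 0.747 and 2.85 FPKM, against 18.3, 0.935 and 8.72 FPKM. The 2 high control libraries of both chains are those that held male tract and smooth muscle transcripts. Their log2 fold changes were −3.14 ± 0.83 and −2.61 ± 0.83 (SE), and without the 3 doubted libraries −0.80 ± 0.57 and −0.21 ± 0.50. Col14a1 was higher without overlap, at 11.2, 6.05 and 8.84 FPKM in shiftwork, against 3.87, 4.43 and 4.96 FPKM in control libraries (0.96 ± 0.38; adjusted p = 0.224, edgeR). Col4a2 was lower without overlap, at 147, 164 and 139 FPKM in shiftwork, against 168, 195 and 168 FPKM in control libraries (−0.25 ± 0.20; adjusted p = 0.519, edgeR). Without overlap 6.1 percent of all genes were higher and 4.52 percent lower.

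Other abundant chains of each class did not pass in any comparison with all libraries. Col5a3, the third type V chain and the most abundant of that type in eWAT, stood at 80.3, 76.0 and 93.0 FPKM in ZT12 shiftwork, 54.1, 65.2 and 70.9 FPKM in ZT12 control, 63.0, 91.0 and 37.2 FPKM in ZT3 shiftwork and 77.6, 143 and 104 FPKM in ZT3 control libraries. It was lower at ZT12 than at ZT3 without overlap in controls (log2 fold change −0.78 ± 0.37, SE; adjusted p = 0.248, edgeR), was called there without the 3 doubted ZT3 libraries, and overlapped between the times under shiftwork (0.36 ± 0.37). Col6a3, the type VI chain whose C-terminal fragment is endotrophin, stood at 20.7, 20.9 and 31.9 FPKM in ZT12 shiftwork, 20.3, 31.0 and 17.5 FPKM in ZT12 control, 18.2, 17.7 and 12.7 FPKM in ZT3 shiftwork and 17.7, 15.5 and 15.7 FPKM in ZT3 control libraries. Under shiftwork the ZT12 libraries of Col6a3 lay above those of ZT3 (0.59 ± 0.28; adjusted p = 0.314, edgeR). In iWAT Col6a3 stood at 74.5, 52.7 and 148 RPKM in shiftwork, against 44.3, 36.3 and 62.3 RPKM in control libraries, and the groups overlapped (0.99 ± 0.46; adjusted p = 0.693, limma).

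The multiplexins lie at the border of basement membranes, and Col18a1 is the source of the fragment endostatin. Col18a1 stood at 39.6, 45.8 and 44.5 FPKM in ZT12 shiftwork, 37.4, 42.7 and 41.5 FPKM in ZT12 control, 38.5, 40.1 and 24.5 FPKM in ZT3 shiftwork and 41, 35.9 and 35.2 FPKM in ZT3 control libraries. Its groups overlapped in all 4 eWAT comparisons of groups, with log2 fold changes between −0.11 and 0.32, and so did those of Col15a1, between 0.02 and 0.14. Both chains were lowest in ZT3 shiftwork replicate 3, the library with germ cell transcripts. Col8a1, a short-chain collagen of vessel walls, ran from 1.64 to 4.10 FPKM over the 12 eWAT libraries and overlapped between the groups in each comparison.

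Some chains were high in the ZT3 libraries with transcripts of other tissues. In ZT3 control replicates 1 and 3 together, 12 of 38 tested chains were above all of the other 9 eWAT libraries (not counting ZT3 shiftwork replicate 3), where 18.5 percent of all genes were. Besides Col7a1 and Col23a1, these included Col26a1, described from mouse testis and ovary, at 1.43 and 0.712 FPKM against at most 0.0756 FPKM, and Col4a6 at 6.01 and 5.29 FPKM against at most 3.00 FPKM. In ZT3 shiftwork replicate 3, 18 of 38 tested chains were above those 9 libraries, where 39.9 percent of all genes were, so that this count is near the background. Col22a1, a FACIT chain of tissue junctions, stood there at 7.96 FPKM against at most 0.0856 FPKM, Col8a2 at 6.01 against at most 1.18 FPKM and the cartilage chain Col2a1 at 1.96 against at most 0.0134 FPKM. Col4a3 and Col4a4, partners in kidney basement membranes, stood at 2.41 and 4.04 FPKM in that library, against at most 0.418 and 0.789 FPKM. No chain's level in these libraries was tested against the marker sums.

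**Figure D4:**
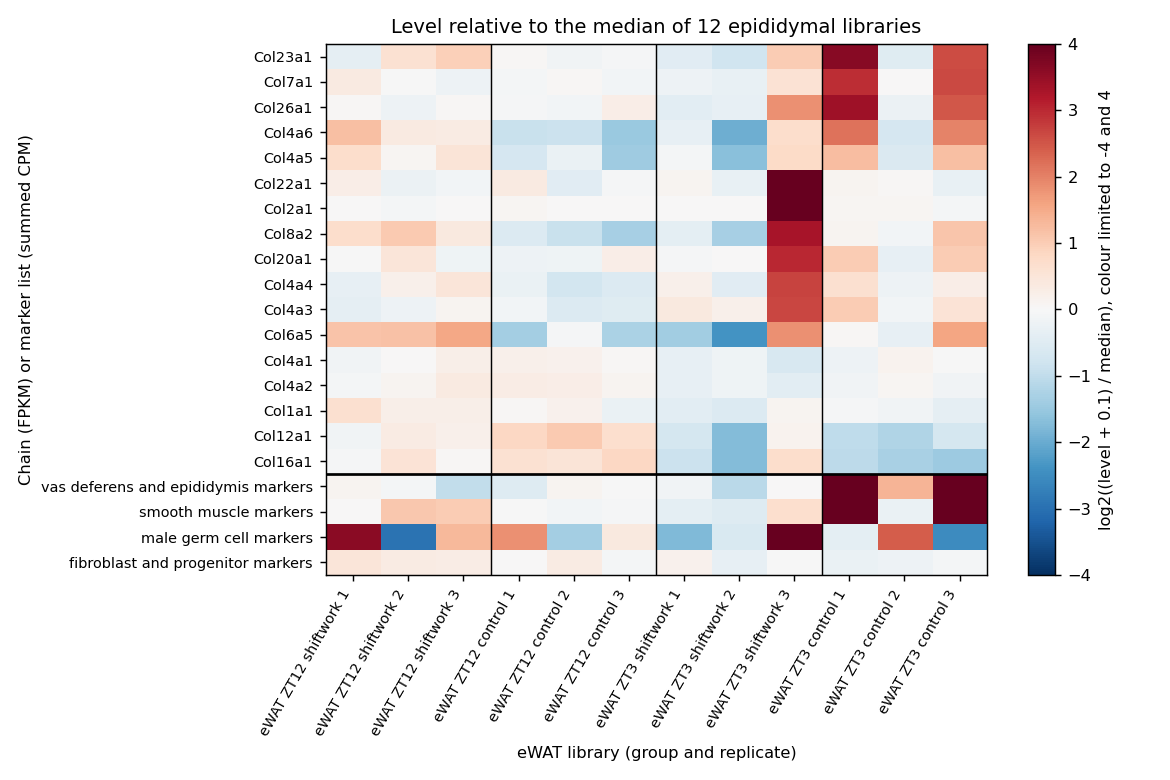
Colour shows the log2 level (level + 0.1, relative to the median of 12 eWAT libraries) of 17 chains in FPKM and, below the line, of 4 marker lists in summed CPM. Col23a1, Col7a1, Col26a1 and Col4a6 are high in ZT3 control replicates 1 and 3 with the vas deferens and smooth muscle markers, and Col22a1, Col2a1 and Col8a2 in ZT3 shiftwork replicate 3 with the germ cell markers, while Col4a1, Col4a2 and Col1a1 stay within 2 log2 units in all 12 libraries.

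In iWAT at ZT3 the type IV pair Col4a1 and Col4a2, the type V pair Col5a1 and Col5a2, Col6a2 and Col16a1 were higher in every shiftwork library than in every control library. No chain passed limma's test over all 16435 genes, and 0.0 percent of all genes did. Without overlap 6 of 38 chains were higher, where 4.04 percent of all genes were, and 0 were lower, where 6.6 percent of all genes were. Col4a1 stood at 444, 486 and 444 RPKM in shiftwork, against 284, 298 and 286 RPKM in control libraries (log2 fold change 0.81 ± 0.22, SE). Col4a2 stood at 396, 441 and 301 RPKM in shiftwork, against 231, 259 and 208 RPKM in control libraries (0.84 ± 0.25). Shiftwork replicate 3 was the lowest of its group for Col4a2 and still above all 3 control libraries. The adjusted p of each was 0.693 by limma. Skeletal muscle markers summed to 157 to 46520 CPM in shiftwork and to 70.7 to 144 CPM in control iWAT, without overlap. Smooth muscle markers summed to 595 to 1594 CPM in shiftwork and to 246 to 559 CPM in control iWAT. The sum of 1594 CPM was that of shiftwork replicate 1, the library with skeletal muscle transcripts, where Des alone stood at 1229 CPM. Des stood at 25.0 to 96.3 CPM in the other iWAT libraries, and without Des the smooth muscle sums overlapped. The part of both lists in these differences was not tested.

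The other 4 chains showed more spread in shiftwork. Col16a1 stood at 14.8, 10.8 and 9.30 RPKM in shiftwork, against 6.27, 5.99 and 5.38 RPKM in control libraries (log2 fold change 1.10 ± 0.23, SE; adjusted p = 0.693, limma). Col5a1, the chain that starts type V assembly, stood at 78.0, 72.4 and 113 RPKM in shiftwork, against 45.6, 38.4 and 57.0 RPKM in control libraries (1.03 ± 0.29). Col5a2 stood at 57.9, 47.7 and 96.3 RPKM in shiftwork, against 30.2, 28.5 and 42.3 RPKM in control libraries (1.10 ± 0.36), and Col6a2 at 100, 90.1 and 171 RPKM, against 61.1, 57.2 and 84.5 RPKM (0.94 ± 0.35). Replicate 3 was the highest of its group for Col5a1, Col5a2 and Col6a2 in both shiftwork and control libraries.

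**Figure D5:**
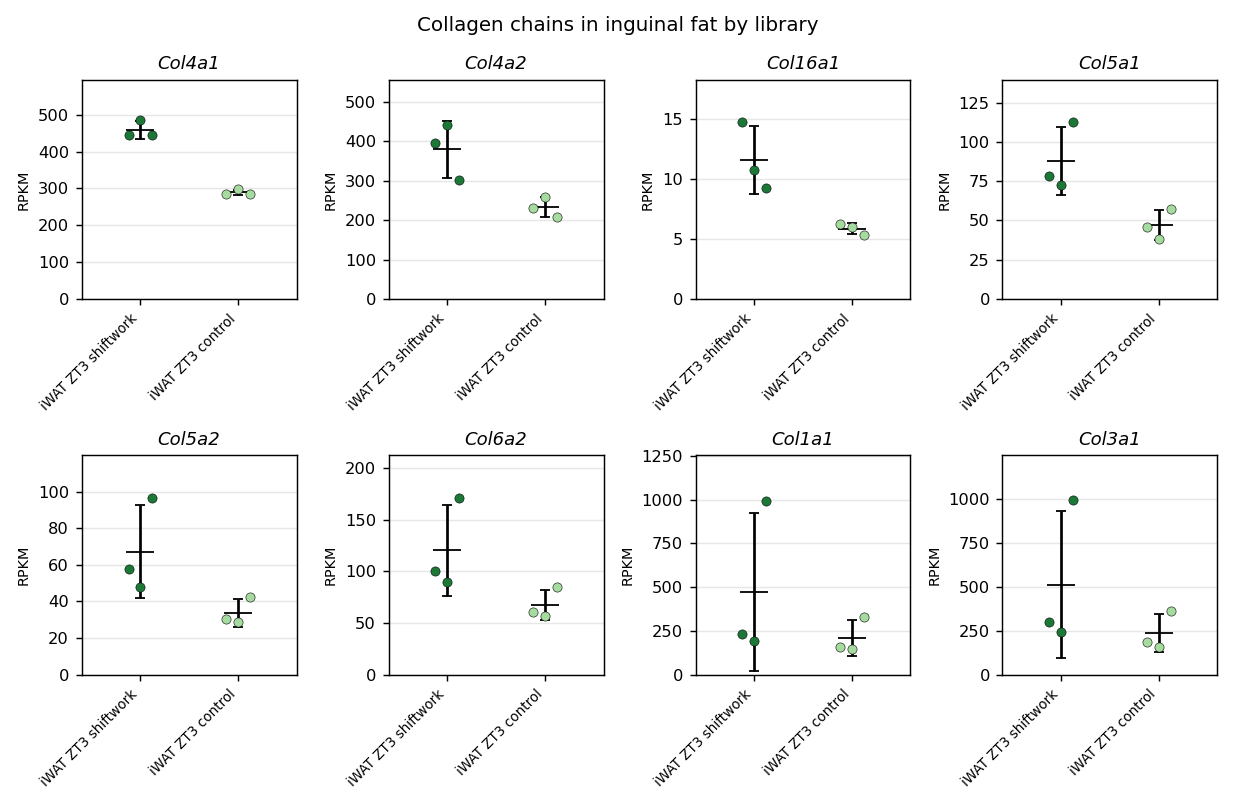
RPKM (y axis) of 8 chains in 3 shiftwork and 3 control iWAT libraries (x axis), with each point 1 library and bars at the mean ± SD. Col4a1 stands at 444 to 486 RPKM in shiftwork and at 284 to 298 RPKM in control libraries, and Col1a1 and Col3a1 overlap between the groups apart from shiftwork replicate 3, at 995 and 994 RPKM.

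The most abundant fibrillar chains overlapped between the groups. Col1a1 stood at 233, 191 and 995 RPKM in shiftwork, against 160, 144 and 330 RPKM in control libraries, and its log2 fold change was 0.26 without shiftwork replicate 3 and between 0.74 and 1.48 without any other single library. Col3a1 stood at 299, 241 and 994 RPKM in shiftwork, against 188, 158 and 361 RPKM in control libraries, and its log2 fold change was 0.44 without shiftwork replicate 3. The sum of fibroblast and progenitor markers was 3606, 2853 and 5450 CPM in shiftwork, against 3030, 2295 and 4243 CPM in control libraries, highest in replicate 3 of each group, and its part in these levels was not tested. Col6a1, at 161, 147 and 314 RPKM in shiftwork, against 116, 105 and 167 RPKM in control libraries, and Col15a1, at 187, 198 and 146 RPKM, against 111, 138 and 179 RPKM, also overlapped.

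Counts of calls in iWAT depended on the tool. At an unadjusted p under 0.05 limma gave 7 of 38 chains, where 6.52 percent of all genes passed. edgeR on the recovered reads called 0 chains, and DESeq2 on the same reads called 4, Col4a1, Col4a2 and Col16a1 higher and Col6a4 lower, where it called 2.84 percent of all genes. In the authors' deposited table the same 4 of 43 chains had an adjusted p under 0.05, with 1.43 percent of all genes listed. The authors' deposited table gives log2 fold changes of 0.79 for Col4a1 (adjusted p = 0.00287), 1.11 for Col16a1 (adjusted p = 0.0137), 0.83 for Col4a2 (adjusted p = 0.0323) and −3.28 for Col6a4 (adjusted p = 0.00399). Col6a4, a long type VI chain, stood at 0.0196, 0.0454 and 0.0811 RPKM in shiftwork, against 1.73, 2.81 and 0.0574 RPKM in control libraries, and the 2 high control libraries are those with high B cell markers (881 and 1439 CPM, against 14 CPM in the other control library and 2.65 to 37.6 CPM in shiftwork).

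Over the 38 chains tested in iWAT 28 had a log2 fold change above 0, with a median of 0.53, against 52 percent above 0 and a median of 0.02 over all genes. The median over the chains was 0.30 without shiftwork replicate 1, which held skeletal muscle transcripts, 0.42 without shiftwork replicate 3, and between 0.46 and 0.71 without any other single library. On RPKM values, the unit of the levels given here, 24 of 38 chains were above 0 with a median of 0.28, against 36.6 percent and a median of −0.07 over all genes. By class, medians were 0.75 for 10 tested fibrillar chains, 0.62 for 6 microfibrillar chains, 0.65 for 6 tested FACIT chains, 0.47 for 6 basement membrane chains and −0.34 for 3 tested transmembrane chains. The fibrillar median was 0.26 without shiftwork replicate 3 and 1.24 without shiftwork replicate 2, and the FACIT median was 0.24 without shiftwork replicate 1 and 0.41 without shiftwork replicate 3. The microfibrillar median was 0.38 without shiftwork replicate 1 and 1.0 without shiftwork replicate 2.

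The shiftwork difference at ZT3 was then set side by side between the depots. For Col4a1 it was 0.81 ± 0.22 log2 units in iWAT and −0.36 ± 0.22 in eWAT, and for Col4a2 0.84 ± 0.25 in iWAT and −0.25 ± 0.20 in eWAT. The difference between the depots, tested with limma over both tables, was 1.15 ± 0.36 for Col4a1 and 1.06 ± 0.34 for Col4a2 (SE; adjusted p = 0.772 each). None of 40 chains tested passed, as did 0.0 percent of 15687 genes, and edgeR called 0 chains as well. At an unadjusted p under 0.05 there were 5 chains, all higher in iWAT, where 5.85 percent of all genes passed. Over the 40 chains 28 were above 0, with a median of 0.51, against 46.6 percent and a median of −0.04 over all genes. It was 24 of 40 with a median of 0.29 without eWAT ZT3 shiftwork replicate 2, and 26 of 40 with a median of 0.33 without iWAT shiftwork replicate 3.

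Genes that make, bind or remove collagen were followed as 3 lists. In control eWAT between ZT12 and ZT3, 3 of 24 tested genes of synthesis and processing were called higher and 0 lower, where 2.93 percent of all genes were called higher and 0.766 percent lower. Bmp1, the protease that removes the C-terminal propeptide of fibrillar procollagens, averaged 11.7 ± 1.5 FPKM at ZT12 and 7.97 ± 0.55 FPKM at ZT3 (SD, n = 3 each; log2 fold change 0.58 ± 0.10, SE; adjusted p = 0.0195, edgeR). Plod1, a lysyl hydroxylase, averaged 18.8 ± 0.4 FPKM at ZT12 and 11.1 ± 0.8 FPKM at ZT3 (0.78 ± 0.16; adjusted p = 0.0307, edgeR). Pcolce2, an enhancer of propeptide removal, averaged 39.1 ± 4.4 FPKM at ZT12 and 10.2 ± 6.5 FPKM at ZT3 (1.92 ± 0.41; adjusted p = 0.0381, edgeR). Per library Pcolce2 stood at 40.4, 42.7 and 34.2 FPKM at ZT12, against 7.26, 17.7 and 5.68 FPKM at ZT3. Its lowest ZT3 values came from replicates 1 and 3, the libraries with vas deferens and smooth muscle transcripts. Over 17 alternatives Bmp1 was called in 12, Plod1 in 9 and Pcolce2 in 6, and none of the 3 was called without ZT3 control replicate 1 or 3 or without ZT12 control replicate 1 or 2.

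Of 8 tested genes of collagen uptake and cleavage 2 were called higher and 1 lower at ZT12 in controls, against the same 2.93 and 0.766 percent of all genes. Mrc2, an endocytic receptor for collagen, averaged 46.9 ± 2.6 FPKM at ZT12 and 9.84 ± 5.02 FPKM at ZT3 (log2 fold change 2.25 ± 0.50, SE; adjusted p = 0.0404, edgeR). Ctsk, the collagen-cleaving cathepsin K, averaged 21.3 ± 6.8 FPKM at ZT12 and 8.41 ± 1.91 FPKM at ZT3 (1.36 ± 0.26; adjusted p = 0.0263, edgeR). Mmp9, a gelatinase, averaged 1.36 ± 0.50 FPKM at ZT12 and 5.46 ± 3.17 FPKM at ZT3 (−1.95 ± 0.44; adjusted p = 0.0428, edgeR). Per library Mmp9 stood at 8.36, 2.07 and 5.96 FPKM at ZT3, against at most 1.93 FPKM at ZT12. Its high ZT3 values came from replicates 1 and 3, the libraries with vas deferens and smooth muscle transcripts, while replicate 2 was close to the highest ZT12 library. Over 17 alternatives Ctsk was called in 9, Mrc2 in 6 and Mmp9 in 5, and none of the 3 was called without ZT3 control replicate 1 or 3, ZT12 control replicate 1 or 2 or ZT12 shiftwork replicate 2 or 3. The macrophage markers, at 1096 to 1863 CPM at ZT12 and 612 to 719 CPM at ZT3, were higher at ZT12, as were Mrc2 and Ctsk but not Mmp9. The part of these markers was not tested. None of 8 tested collagen receptors passed in this comparison, and Itga11, a fibrillar collagen integrin, had a log2 fold change of 1.23 ± 0.30 (adjusted p = 0.0519, edgeR).

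In the other comparisons with all libraries no gene of the 3 lists passed by edgeR or limma. Under shiftwork all 24 tested genes of synthesis and processing had a log2 fold change above 0 between ZT12 and ZT3, with a median of 0.39, against 46.4 percent above 0 and a median of −0.03 over all genes. It was 21 of 24 with a median of 0.25 without the 3 doubted ZT3 libraries, and the fibroblast and macrophage markers were higher at ZT12 in the same comparison. In iWAT 23 of 25 synthesis genes were above 0 for shiftwork against control, with a median of 0.63, against 52 percent above 0 and a median of 0.02 over all genes. It was 19 of 24 with a median of 0.36 without shiftwork replicate 3, and 21 of 25 with a median of 0.39 on RPKM values. P3h1, a prolyl 3-hydroxylase, averaged 15.7 ± 2.5 RPKM in shiftwork and 10.6 ± 0.6 RPKM in control iWAT (SD, n = 3 each; log2 fold change 0.70 ± 0.18, SE; adjusted p = 0.693, limma). Plod2, the telopeptide lysyl hydroxylase, averaged 3.25 ± 0.99 RPKM in shiftwork and 1.73 ± 0.57 RPKM in control iWAT (1.07 ± 0.33; adjusted p = 0.693, limma).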

How the data were processed

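RNA-seq was made from whole eWAT and iWAT of C57BL/6 mice (Trizol and column RNA, Kapa mRNA HyperPrep, single reads on an Illumina HiSeq, per the labels' protocols). STAR, HTSeq, DESeq2, limma, edgeR and the build mm10/GRCm38 are named without versions or roles in the submitters' processing notes, and the strand setting of the counting is not given in the sources used here. For eWAT the authors deposited whole-number counts per gene and log2 FPKM, whose floor of −3.32 is log2 of an offset that was subtracted here. For iWAT the authors deposited RPKM, a normalized count signal and a table of log2 fold changes with p-values. In that signal 100 percent of 144100 values above zero were whole multiples of 1 step per library (largest deviation 2.79e-09), which gave recovered reads.

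eWAT counts of 12 libraries were tested with edgeR 4.0.16 (quasi-likelihood, TMM, filterByExpr with a minimum count of 10 and total of 15). The SE given with edgeR values was derived as the absolute log2 fold change divided by the square root of the test's F statistic. iWAT was tested with limma 3.58.1 on log2(signal + 1) of genes with at least 10 recovered reads in 3 libraries, which understates the change of low genes, and the depot difference with limma on log2(CPM + 1). R was 4.3.3. p-values were Benjamini-Hochberg adjusted over all genes, with a threshold of 0.05. CPM of marker lists came from counts or recovered reads. The statistics were tested on simulated data. Alternatives were DESeq2 1.42.0, RLE scaling, no filter, pseudocount 0.5, RPKM values, a replicate block and leaving out each library. Values per library were given for called chains and the leading chains of each class, and at most 4 genes per other list and comparison were named. The members and lists were chosen with earlier results of these data known. Some iWAT and eWAT libraries share a number in their labels, and the labels do not say whether they share animals.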

Additional observations from a re-analysis of the deposited data

Results flagged for a closer look

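Col4a2, the partner of Col4a1 in basement membranes, was flagged because its ZT3 groups did not overlap in either depot, in opposite directions. It was higher in every iWAT shiftwork library than in every iWAT control library and lower in every eWAT shiftwork library than in every eWAT control library. The eWAT gap was narrow, with the highest shiftwork library at 164 FPKM and the lowest control library at 168 FPKM. The eWAT libraries compared include those with male tract transcripts (control replicates 1 and 3) and germ cell transcripts (shiftwork replicate 3). The depot difference of the shiftwork effect was 1.06 log2 units (iWAT minus eWAT), with an adjusted p of 0.772 by limma over all genes tested.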

How the results depend on the processing

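Over 30 results for single chains, 467 values under alternatives comprised 430 with the same direction and side of the threshold, 20 that lost and 17 that gained a call, and 0 that reversed. All 20 losses fell on the 2 called results, ZT12 against ZT3 in controls for Col12a1 (7 of 17 alternatives) and Col16a1 (13 of 17). The other results were not called with all libraries and so could not lose a call. For ZT12 against ZT3 in controls the number of chains called was 2 in the report, 1 with RLE scaling, 1 without a filter on low counts, 11 with DESeq2, 1 with the replicate block and 0 to 12 without single libraries. DESeq2 called 2 chains for shiftwork against control at ZT3 in eWAT, 2 for ZT12 against ZT3 under shiftwork, 1 for the interaction and, on recovered reads, 4 in iWAT. In the same 4 comparisons edgeR and limma, which called 0 chains with all libraries, called 0 to 2, 0 to 0, 0 to 1 and 0 to 1 without single libraries, where the iWAT call was Col6a4 without control replicate 3. DESeq2 was not run without single libraries. Over all genes, calls for ZT12 against ZT3 in controls numbered 559 in the report, 470 with RLE scaling, 320 without a filter, 2168 with DESeq2, 298 with the replicate block and 1 to 2744 without single libraries. The labels do not say whether equal replicate numbers pair libraries. Of the same-number pairs, 4 of 18 in eWAT and 0 of 3 in iWAT had a correlation of deviations over 0.1. With 3 libraries per group this cannot decide whether the libraries were paired. The cause of the changes in the numbers of calls was not tested. Depth limits the low chains: 32 of 44 chains had at least 10 reads in every library of a depot.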
